A study of Homo sapiens with 9 samples.

Results

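Transcripts of 9 genes of the transforming growth factor beta (TGF-beta) pathway were followed in HMC3 cells: the ligands TGFB1, TGFB2 and TGFB3, the activin subunit INHBA, the receptors TGFBR1 and TGFBR2, the signal transducers SMAD3 and SMAD7, and the target TGFBI. They were chosen by name for their place in the pathway, with earlier results of these data known, and all 9 were found among 61544 genes listed and passed the expression filter that left 14727 genes to test. HMC3 is a human line kept as a model of microglia and immortalized with SV40 large T antigen, which all groups therefore share. SLO cells received 10 µM SBI-0206965 (a ULK1 inhibitor), 1 µM Lopinavir (a blocker of Lamin A maturation) and 1 µM O-151 (an OGG1 inhibitor) together for 6 days, SLO ½ cells the same mixture at 5, 0.5 and 0.5 µM, and VEH cells DMSO alone as the solvent. Each group held 3 bulk libraries of polyadenylated RNA. Since the compounds were given together, the parts of single compounds cannot be told apart.

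TGF-beta ligands are secreted in a latent complex with their own propeptide and a binding protein, and integrins and proteases release them. A free ligand brings together the type II receptor TGFBR2 and the type I receptor TGFBR1, which phosphorylates SMAD2 and SMAD3. With SMAD4 these enter the nucleus and bind short DNA elements beside target genes. SMAD7 is itself such a target and blocks the type I receptor, which makes it a brake on the pathway. Activin A, a dimer of INHBA chains, uses its own receptors and the same Smads. In brain, TGF-beta is known for holding microglia in their resting state, and in mesenchymal cells for driving matrix and contractile genes.

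Reads on genes ranged from 15757312 to 19674841 per VEH library, from 16582267 to 17594006 per SLO ½ library and from 14834295 to 16443926 per SLO library, and mitochondrial genes took 1.30% to 1.61% of them in VEH, 2.30% to 2.86% at the lower dose and 2.51% to 3.12% at the full dose. Of 14 microglial markers, 10 had at most 3 counts in each of the 9 libraries, and P2RY12, TYROBP, C1QA and GPR34 were at 0 in all. The summed CPM (counts scaled by library size and TMM factor) of that list ranged from 0.525 to 0.889 among VEH libraries, from 1.59 to 2.40 at the lower dose and from 1.94 to 2.12 at the full dose. Fibroblast and mesenchymal markers (7 genes, of which COL3A1, LUM and DCN were near 0) summed to 2607 to 3056, 3180 to 3276 and 3739 to 3907 CPM in the same order, mostly COL1A1. The other expressed genes of that list differed in direction. THY1 averaged 264, 413 and 344 CPM in the same order, above VEH at both doses without overlap. PDGFRB averaged 91.3, 64.1 and 75.0 CPM, lower than VEH at both doses, and COL1A2 95.3, 89.1 and 113 CPM, highest at the full dose. A list of 4 endothelial markers summed to at most 0.731 CPM in VEH and to at most 3.36 CPM with treatment, mostly VWF, and 5 astrocyte markers summed to 1.98 to 2.86 CPM over all libraries. These values and the mitochondrial share stand beside the results below, in which their part was not tested. In bulk libraries, fewer cells of a type and less RNA per cell cannot be told apart.

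The stretch just before each gene's annotated start was read from GRCh38 for the members whose changes carry the results below: SMAD7, TGFBI and TGFBR1, which rose most in SLO, and TGFB2, the most abundant of the 3 TGFB ligands. Each sequence holds the 250 bases before the start, on the strand of the gene, and capitals mark the Smad box CAGAC on either strand.
SMAD7 (chr18:48950966-48951215, minus strand): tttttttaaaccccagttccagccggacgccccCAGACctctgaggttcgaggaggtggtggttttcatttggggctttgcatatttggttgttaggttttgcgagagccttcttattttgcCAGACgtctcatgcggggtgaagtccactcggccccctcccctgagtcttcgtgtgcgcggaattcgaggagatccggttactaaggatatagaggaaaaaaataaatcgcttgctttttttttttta
TGFB2 (chr1:218345086-218345335, plus strand): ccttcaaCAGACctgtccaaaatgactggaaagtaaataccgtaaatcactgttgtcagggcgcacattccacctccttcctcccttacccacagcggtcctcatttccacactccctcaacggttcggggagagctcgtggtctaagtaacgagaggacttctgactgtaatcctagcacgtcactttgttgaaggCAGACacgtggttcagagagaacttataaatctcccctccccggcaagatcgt
TGFBI (chr5:136028738-136028987, plus strand): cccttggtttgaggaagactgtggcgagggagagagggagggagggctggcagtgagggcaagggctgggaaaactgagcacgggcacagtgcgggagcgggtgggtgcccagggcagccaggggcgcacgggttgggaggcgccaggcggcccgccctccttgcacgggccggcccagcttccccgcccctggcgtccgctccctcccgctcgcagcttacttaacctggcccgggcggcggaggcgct
TGFBR1 (chr9:99103788-99104037, plus strand): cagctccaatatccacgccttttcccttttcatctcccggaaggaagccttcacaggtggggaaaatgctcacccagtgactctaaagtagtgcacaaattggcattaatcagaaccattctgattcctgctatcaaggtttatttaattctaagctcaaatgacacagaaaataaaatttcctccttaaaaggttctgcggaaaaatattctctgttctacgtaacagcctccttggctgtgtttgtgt
SMAD7 held 2 boxes, beginning 217 and 128 bases before its start, and TGFB2 held 2, beginning 243 and 53 bases before it. TGFB3 also held 2, and the other 6 members, TGFBI and TGFBR1 among them, held none in this window. The start was the outermost base of the annotated gene, and the result depends on it and on the window. Within 1000 bases on either side, TGFBR1 held 11 boxes, TGFB2 5, TGFBI 4 and SMAD7 3, and 97.5% of tested genes held at least 1. In the window of 250 bases, at least 1 box stood in 37.0% of 14701 tested genes and at least 2 in 8.37%. The palindrome GTCTAGAC, which joins the shorter Smad element AGAC to its reverse complement GTCT, was in none of the members within 1000 bases on either side of the start, and in 0.959% of all genes. A match is a description of the letters and says nothing about binding.

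At the full dose, 5 members rose and 1 fell against VEH at an adjusted p below 0.05 in edgeR's quasi-likelihood test, and 64.9% of all tested genes passed the same limit, 32.9% upward and 32.1% downward. The rises were in SMAD7 (2.48-fold), TGFBI (2.14-fold), TGFBR1 (1.83-fold), INHBA (1.46-fold) and SMAD3 (1.07-fold), and the fall was in TGFBR2 (0.892-fold). In SLO ½, 4 members rose (TGFBI, INHBA, SMAD7 and SMAD3) and 1 fell (TGFB2), with 52% of tested genes called (26.7% upward and 25.3% downward). Between the doses, 4 members were higher in SLO (TGFBR1, SMAD7, TGFB2 and TGFBI) and 1 was lower (TGFBR2), with 41.1% of tested genes called (20.8% upward and 20.3% downward). The CPM of the groups did not overlap for 6 members in each comparison, beside 66.7% of tested genes for SLO against VEH, 58.3% for SLO ½ against VEH and 51% between the doses. The number of members called was thus near that of any genes of this table, and what sets single members apart is the size of their change. SMAD7 and TGFBI more than doubled in SLO with a call, and 11.8% of tested genes had a called change beyond a doubling or a halving.

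**Figure D1:**
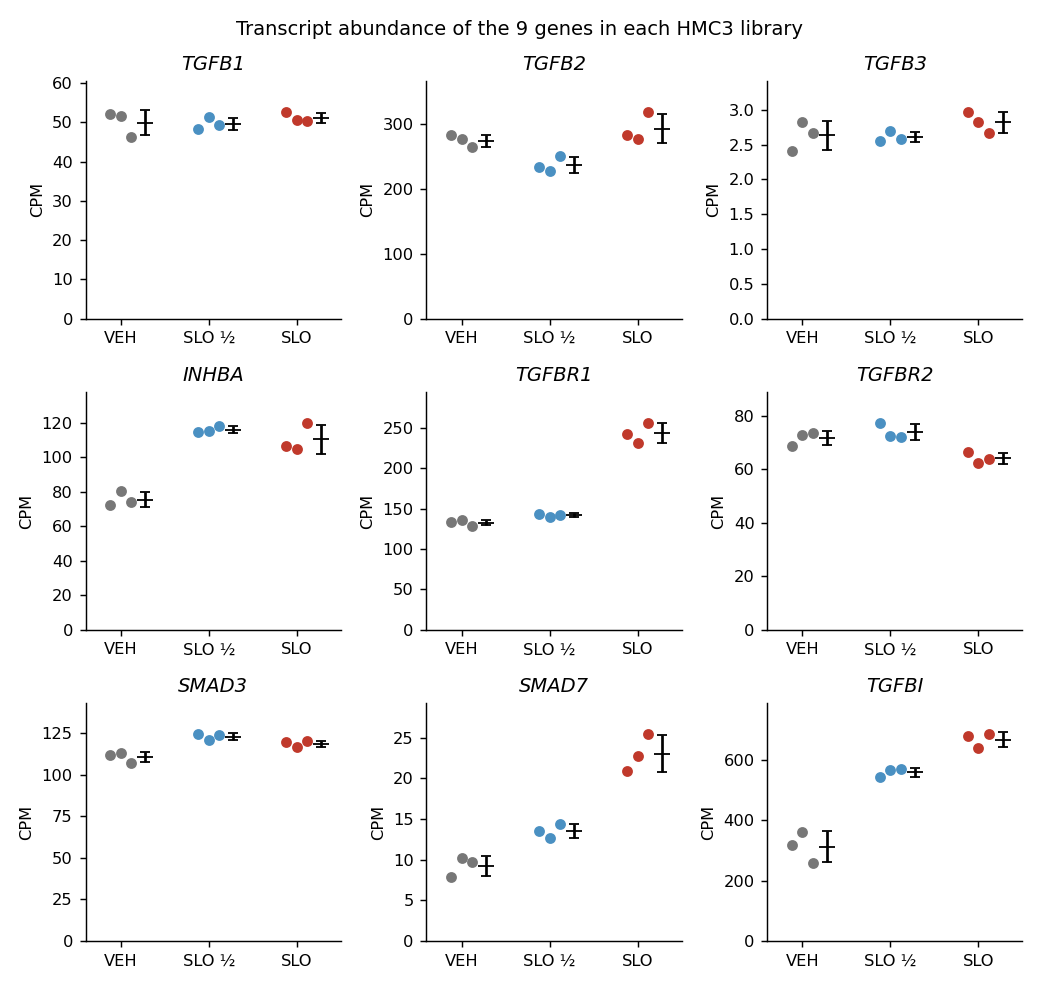
CPM of the 9 genes (vertical axes, from 0) in the 3 VEH, 3 SLO ½ and 3 SLO libraries, with the mean and SD beside the points. TGFBI, SMAD7 and INHBA lie above VEH at both doses, TGFBR1 stands clear only in SLO, and TGFB2 is lowest in SLO ½.

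Among the ligands, TGFB2 was by far the most abundant of the 3 TGFB genes. Per transcript length, its VEH level was 214 ± 6.17 TPM (abundance scaled by gene length and library total, SD, n = 3), beside 71.9 ± 4.45 TPM for TGFB1 and 2.37 ± 0.200 TPM for TGFB3. TGFB2 (ENSG00000092969.12, chr1:218345336-218444619, plus strand), a ligand needed for heart and eye development, had CPM values of 283, 277 and 265 in the VEH libraries, 234, 227 and 251 in SLO ½, and 284, 277 and 319 in SLO. Every SLO ½ library lay below every VEH and every SLO library, while VEH and SLO overlapped. It fell in SLO ½ (log2 fold change -0.21 ± 0.048 SE, adjusted p = 0.000464) and was 1.24-fold higher in SLO than in SLO ½ (log2 fold change 0.30 ± 0.048 SE, adjusted p = 7.1e-06). For SLO against VEH, its log2 fold change was 0.092 with a 95% confidence interval of -0.0055 to 0.19 (adjusted p = 0.0915). That last value passed the limit without SLO replicate 2 (0.13, adjusted p = 0.0253), and 2 other settings did the same, while without SLO replicate 3 it was 0.025 (adjusted p = 0.669).

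TGFB1 (ENSG00000105329.11, chr19:41301587-41353922, minus strand), the main ligand of platelets and immune cells, kept a narrow range: 52.1, 51.5 and 46.2 CPM in VEH, 48.3, 51.2 and 49.4 in SLO ½, and 52.6, 50.7 and 50.2 in SLO. The groups overlapped in each comparison, and the log2 fold change was 0.039 in SLO (95% confidence interval -0.073 to 0.15) and -0.0047 in SLO ½ (-0.12 to 0.11). Changes within these intervals could not be told from none. TGFB3 (ENSG00000119699.8, chr14:75958097-75983011, minus strand) was counted with only 38 to 51 reads per library (2.41, 2.82 and 2.66 CPM in VEH, 2.55, 2.69 and 2.58 in SLO ½, 2.97, 2.83 and 2.66 in SLO), so that its interval for SLO against VEH ran from -0.26 to 0.46 on the log2 scale. A change of a size within that interval was neither shown nor excluded.

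INHBA (ENSG00000122641.11, chr7:41667168-41705834, minus strand), whose product forms activin A, rose at both doses. Its CPM was 72.1, 80.1 and 73.7 in VEH, 115, 115 and 118 in SLO ½, and 106, 105 and 119.6 in SLO. No treated library overlapped VEH, and the 2 doses overlapped each other. The log2 fold change was 0.62 ± 0.050 SE in SLO ½ (adjusted p = 2.56e-11) and 0.55 ± 0.051 SE in SLO (adjusted p = 1.4e-10). Between the doses it was -0.073 (95% confidence interval -0.17 to 0.027, adjusted p = 0.244). Without SLO replicate 3, the highest SLO library, INHBA was lower in SLO than in SLO ½ (-0.14, adjusted p = 0.0377).

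The receptors moved apart. TGFBR1 (ENSG00000106799.13, chr9:99104038-99154192, plus strand), the kinase that phosphorylates SMAD2 and SMAD3, had 134, 136 and 129 CPM in VEH, 144, 139 and 143 in SLO ½, and 243, 232 and 256 in SLO. All 3 SLO libraries were far above the other 6, and the SLO ½ libraries lay just above VEH without overlap. TGFBR1 rose in SLO (log2 fold change 0.87 ± 0.042 SE, adjusted p = 7.28e-17) and was 1.72-fold higher in SLO than in SLO ½ (log2 fold change 0.78 ± 0.042 SE, adjusted p = 1.31e-14). By its p in the comparison of doses it stood at rank 24 of the 14727 tested genes, and 94.7% of them had a smaller change. In SLO ½ its log2 fold change was 0.095 (adjusted p = 0.0646), and this value was called under 3 of 9 other settings, at up to 0.15. TGFBR2 (ENSG00000163513.19, chr3:30606601-30694142, plus strand), the ligand-binding receptor, had 68.9, 72.8 and 73.7 CPM in VEH, 77.3, 72.6 and 72.0 in SLO ½, and 66.4, 62.2 and 63.7 in SLO. The SLO libraries were the 3 lowest, by a small margin to VEH. It fell in SLO against VEH (log2 fold change -0.16 ± 0.049 SE, adjusted p = 0.00421) and against SLO ½ (-0.21 ± 0.049 SE, adjusted p = 0.00101), and the first call was lost with libraries scaled by size alone (-0.090, adjusted p = 0.1).

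**Figure D2:**
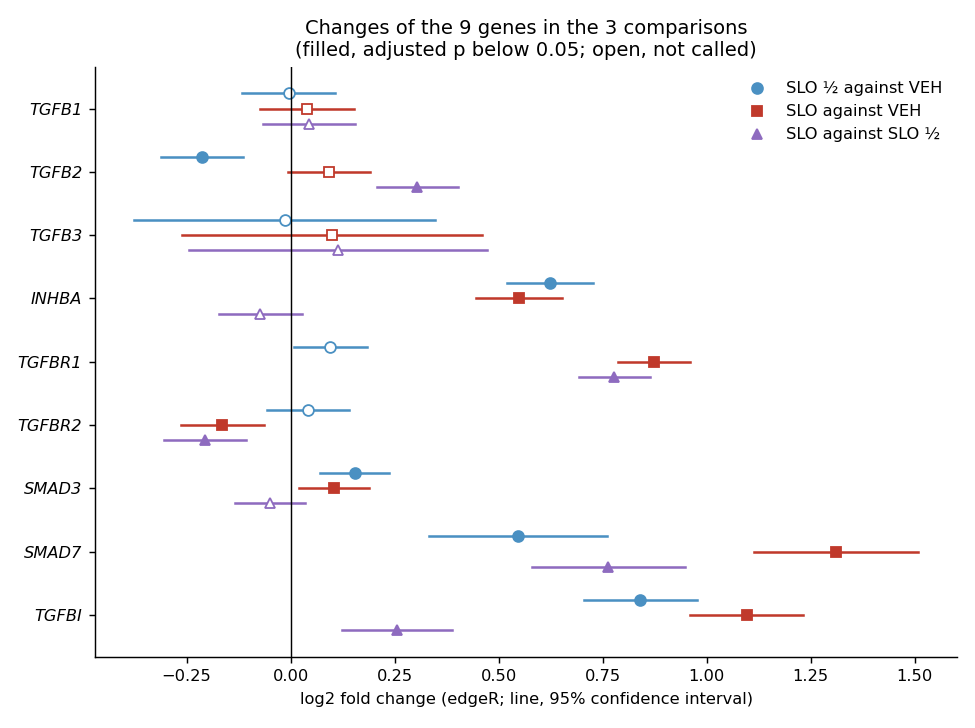
The log2 fold change of each gene in 3 comparisons, with 95% confidence intervals as lines, filled symbols for an adjusted p below 0.05 and open symbols for genes not called. TGFBR1 and SMAD7 differ most between the doses (0.78 and 0.76), INHBA is called against VEH at both, and TGFB2 lies at -0.21 in SLO ½ and 0.092 in SLO.

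Of the Smads, SMAD7 changed far more than SMAD3. SMAD7 (ENSG00000101665.10, chr18:48919853-48950965, minus strand), the inhibitory Smad that brings ubiquitin ligases to the type I receptor, had 7.87, 10.2 and 9.66 CPM in VEH, 13.6, 12.6 and 14.4 in SLO ½, and 20.9, 22.7 and 25.4 in SLO. The 3 groups followed the dose without overlap. Its log2 fold change was 1.31 ± 0.097 SE in SLO (adjusted p = 1.07e-12), 0.55 ± 0.10 SE in SLO ½ (adjusted p = 6.37e-05) and 0.76 ± 0.090 SE between the doses (adjusted p = 6.39e-08). In the comparison of doses, 94.5% of tested genes had a smaller change. SMAD3 (ENSG00000166949.17, chr15:67063763-67195173, plus strand), a transcription factor that the receptor activates, had 112, 113 and 107 CPM in VEH, 124, 121 and 124 in SLO ½, and 119.6, 117 and 120.2 in SLO. Treated libraries were above VEH at both doses, by little. It rose in SLO ½ (log2 fold change 0.15 ± 0.041 SE, adjusted p = 0.00234). In SLO its log2 fold change was 0.10 (adjusted p = 0.0296), a call that was lost under 4 of 9 other settings (adjusted p up to 0.216) and when VEH replicate 3, SLO replicate 1 or SLO replicate 3 was left out (0.078, 0.096 and 0.093, with adjusted p = 0.145, 0.0787 and 0.0939).

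TGFBI (ENSG00000120708.17, chr5:136028988-136063818, plus strand), a secreted matrix protein named for its induction by TGF-beta, was the most abundant member in treated cells. Its CPM was 319.9, 361 and 258 in VEH, 543, 567 and 570.2 in SLO ½, and 679, 639 and 686 in SLO. The VEH libraries were the most spread, replicate 3 being lowest, and the 3 groups did not overlap. It rose at the lower dose (0.84 ± 0.066 SE, adjusted p = 1.31e-11) and further at the full dose (1.10 ± 0.066 SE, adjusted p = 1.25e-14). The step from SLO ½ to SLO was smaller (0.26 ± 0.064 SE, adjusted p = 0.002), and DESeq2 did not call it (0.26, adjusted p = 0.0635).

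Levels can be ordered between genes only per length. In VEH, TPM ran from TGFB2 (214) through TGFBI (191 ± 31.4), TGFBR1 (91.6), TGFB1 (71.9), SMAD3 (52.2), TGFBR2 (49.3), INHBA (42.8) and SMAD7 (11.02) to TGFB3 (2.37). TGFB2 and TGFBI overlapped between libraries, as did SMAD3 and TGFBR2, and no other neighbours did. With treatment, TGFBI took the first place (331 ± 8.89 TPM in SLO ½ and 405 ± 15.6 in SLO) and INHBA passed SMAD3 and TGFBR2 to the fifth (63.9 ± 1.79 and 62.3 ± 4.60). In both treated groups no neighbours in the order overlapped.

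Ratios of members within a library do not depend on its scaling. TGFBR1 TPM were 1.86 times those of TGFBR2 in VEH, 1.93 times in SLO ½ and 3.81 times in SLO (means of the log2 ratio 0.89 ± 0.076, 0.95 ± 0.046 and 1.93 ± 0.073, SD, n = 3). The log2 ratio was 1.04 higher in SLO than in VEH and 0.98 higher than in SLO ½, without overlap (two-sided exact permutation test, p = 0.1 each, the smallest that 3 against 3 libraries allow). SLO ½ and VEH overlapped (difference 0.053, exact permutation p = 0.5), and this difference ran from 0.012 without VEH replicate 3 to 0.088 without VEH replicate 1. SMAD7 TPM were 0.210 times those of SMAD3 in VEH, 0.278 times in SLO ½ and 0.488 times in SLO. This log2 ratio rose with dose without overlap, by 0.40 in SLO ½ and by 1.22 in SLO (exact permutation p = 0.1 each). Of the summed TPM of the 3 TGFB ligands, VEH cells had 74.2% ± 0.632 from TGFB2, SLO ½ cells 71.4% ± 1.39 and SLO cells 74.9% ± 1.72. Its share in SLO ½ was 2.84 percentage points below VEH without overlap (exact permutation p = 0.1), and SLO differed from VEH by 0.648 points with overlap (p = 0.7 in the exact permutation test). Of the 9 comparisons of ratios, 7 had this smallest p, which is 0.129 after Benjamini-Hochberg adjustment over the 9 exact permutation tests.

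**Figure D3:**
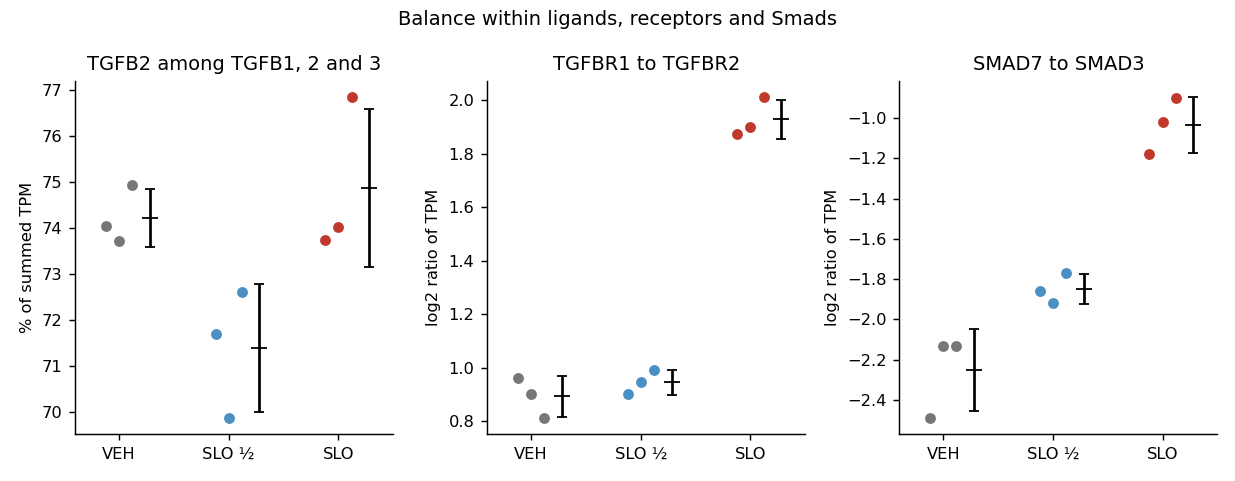
TGFB2 as a percentage of the summed TPM of TGFB1, TGFB2 and TGFB3 (left), and the log2 ratios of TGFBR1 to TGFBR2 TPM (middle) and of SMAD7 to SMAD3 TPM (right), by library with mean and SD. The axes do not start at 0. The receptor ratio moves only in SLO, from 0.89 to 1.93, and the Smad ratio climbs from -2.25 through -1.85 to -1.03.

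The rest of the pathway was described with 6 lists of 82 genes, of which 69 could be tested. In SLO, 39 of them rose, 19 fell and 11 were not called, with a median log2 fold change of 0.25 beside 0.014 over all tested genes, of which 64.9% were called (32.9% upward and 32.1% downward). In SLO ½, 40 rose and 18 fell, with a median of 0.25 beside 0.015 and 52% of all tested genes called. Between the doses, 29 were higher in SLO and 18 lower, where 41.1% of all tested genes were called. The counts of the single lists below are to be read against the same shares. Picked out after their values were seen, LRRC32, INHA and COMP had at most 7, 5 and 1 counts per VEH library. They passed the expression filter through treated libraries, so they could hardly count as falls. ACVR1C, also picked out afterwards, had 4 to 12 counts per VEH library and was not called in either treatment. With at least 10 counts in every library, 3 of 8 latency genes rose in SLO and 3 fell. In that setting 22 of 28 target genes rose and 2 fell in SLO, and 3 of 4 activin-type genes rose and 1 fell in SLO ½. Of all 12946 genes tested there, 4371 rose and 4295 fell in SLO, and 3636 rose and 3428 fell in SLO ½.

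Of 9 tested genes that keep TGF-beta latent or set it free, 4 rose and 4 fell in SLO. In DESeq2, and with libraries scaled by size alone, 4 rose and 3 fell. LTBP1, which ties the latent ligand to matrix, averaged 7.44 ± 0.555 CPM in VEH libraries, 11.3 ± 0.729 at the lower dose and 21.1 ± 1.62 at the full dose (SD, n = 3), where it had risen 2.84-fold (1.51 on the log2 scale, adjusted p = 3.42e-14). The integrin subunits that bind the latent ligand split. ITGAV rose from 264 ± 13.2 to 368 ± 6.09 and 521 ± 28.7 CPM (0.98 in SLO, adjusted p = 1.86e-17). ITGB8, its partner on microglia and other cells, fell from 118 ± 7.24 to 54.2 ± 0.985 and 51.1 ± 3.89 CPM (-1.21 in SLO, adjusted p = 1.07e-17), and the doses were not called apart (-0.087, adjusted p = 0.239).

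Among 5 tested activin-type ligands and antagonists, 2 rose and 2 fell in SLO. FSTL3, which binds and neutralizes activin, climbed from 40.4 ± 3.33 through 65.2 ± 1.96 to 98.5 ± 3.60 CPM (1.29 in SLO, adjusted p = 3.07e-18). GDF11, a ligand that uses the activin receptors, rose from 52.1 ± 2.7 to 64.5 ± 1.66 and 103 ± 1.79 CPM (0.98, adjusted p = 8.36e-17). INHBB, another activin beta chain, moved opposite to INHBA, from 101 ± 8.17 to 62.5 ± 3.65 and 58.2 ± 4.66 CPM (-0.79, adjusted p = 1.71e-12). Of 7 other receptors and co-receptors tested, 3 rose and 2 fell in SLO. The type II activin receptors went in opposite directions, ACVR2A from 12.0 ± 0.553 to 21.9 ± 1.48 CPM in SLO (0.86, adjusted p = 8.35e-10) and ACVR2B from 10.3 ± 0.5 to 3.99 ± 0.631 CPM (-1.37, adjusted p = 5.25e-10). ACVR1B, the type I activin receptor, rose by 0.20 in SLO (adjusted p = 0.00294).

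Of 7 other transducers tested, 3 fell in SLO and 4 were not called in edgeR's quasi-likelihood test, while with libraries scaled by size alone 3 rose and 3 fell. SMAD4, the shared partner of activated Smads, fell from 56.5 ± 0.545 to 41.0 ± 2.47 CPM (-0.46, adjusted p = 1.02e-08), and SMAD2, the other Smad activated by TGFBR1, from 96.1 ± 3.50 to 77.0 ± 3.52 CPM (-0.32, adjusted p = 6.58e-07). ZFYVE9, which presents Smads to the receptor, fell from 63.4 ± 0.504 to 38.7 ± 0.940 CPM (-0.71, adjusted p = 5.74e-13). In SLO ½, 6 of the 7 fell and 1 rose, beside 52% of all tested genes called, and with libraries scaled by size alone 4 fell and 1 rose. SMAD2, SMAD4 and ZFYVE9 were among the 6 (-0.27, -0.36 and -0.50, adjusted p = 1.74e-05, 1.41e-06 and 1.55e-09), while SMAD3 rose at that dose.

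All 12 tested inhibitors and feedback genes were called in SLO, 7 up and 5 down, beside 64.9% of all tested genes. Several other settings did not call them all. With libraries scaled by size alone 7 rose and 4 fell. In DESeq2, 6 rose and 5 fell, and in limma on log2(TPM + 1), 5 rose and 5 fell. The largest rise was in BAMBI, a decoy receptor without a kinase, from 4.36 ± 0.377 through 14.4 ± 0.979 to 22.5 ± 1.47 CPM (5.11-fold in SLO, 2.35 on the log2 scale, adjusted p = 9.78e-18). PMEPA1, a TGF-beta target that sequesters Smads, rose from 6.83 ± 0.810 to 11.1 ± 1.81 and 20.1 ± 2.26 CPM (1.55, adjusted p = 1.09e-12). SKI, a repressor of Smad complexes, rose from 95.1 ± 2.08 to 139 ± 7.72 CPM in SLO (0.55, adjusted p = 9.99e-12). With SMAD7 these 3 inhibitors were higher in SLO than in SLO ½, by 0.64, 0.86 and 0.40 in the order given (adjusted p = 3.23e-07, 1.07e-07 and 2.58e-08).

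Of 29 other tested target genes, 23 rose, 3 fell and 3 were not called in SLO (median 0.42), beside 32.9% of all genes upward. TAGLN, an actin-binding protein of smooth muscle, rose from 432 ± 6.72 to 933 ± 7.81 and 1446 ± 64.4 CPM (1.74 in SLO, adjusted p = 4.82e-24). ACTA2, smooth muscle actin, rose from 2.69 ± 0.253 to 19.7 ± 0.456 and 45.9 ± 3.96 CPM (4.09 in SLO, adjusted p = 1.15e-23). HMGA2, a chromatin protein, fell from 94.8 ± 13.8 to 70.1 ± 1.6 and 26.2 ± 0.753 CPM (-1.86 in SLO, adjusted p = 1.04e-18). Most genes of this list answer to other signals as well, and COL1A1 and COL1A2 also stand in the fibroblast list above. FN1 and COMP were picked out after their values were seen. FN1, fibronectin, fell from 22238 ± 1702 CPM to 12139.8 ± 443 in SLO (-0.87, adjusted p = 3.04e-15). COMP had 0 or 1 count in each VEH library and 18 to 25 in SLO, and no fold is given for it.

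**Figure D4:**
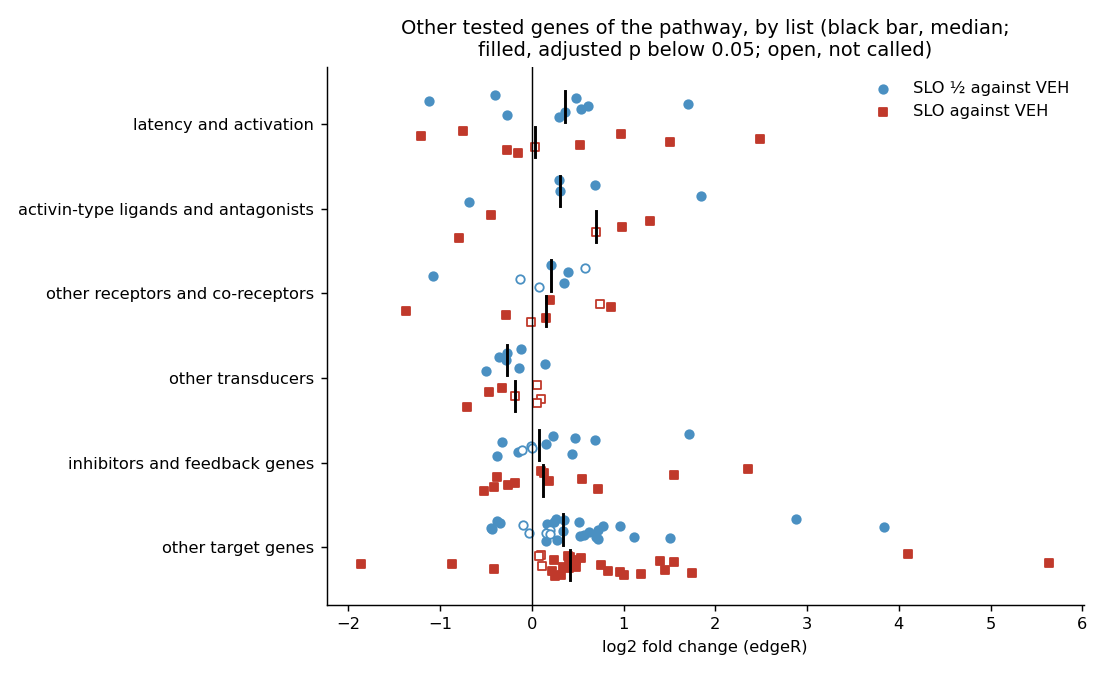
The log2 fold change of the 69 tested pathway genes by list, in SLO ½ and SLO against VEH, which share the VEH libraries. Black bars are list medians, filled symbols genes with an adjusted p below 0.05. Target genes lie mostly to the right of 0 (23 of 29 rose in SLO). Of the 7 other transducers, 6 fell in SLO ½ and 3 in SLO, with 3 others rising in SLO when libraries are scaled by size alone.

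For each member, the tested gene with the closest profile over the 9 libraries was sought among 10934 genes, by the root mean square difference of log2 CPM after setting the VEH mean to 0. The closest gene has the smallest of these differences, so its place below their median follows from the choice. The median gives only the scale. TGFBR1 was followed most closely by RAB11FIP1 (0.062, beside a median of 0.564 over all candidates), SMAD7 by ZMAT3 (0.10, median 0.869), TGFBI by NMNAT2 (0.099, median 0.853) and INHBA by ST3GAL1 (0.065, median 0.538). RAB11FIP1 went from 65.9 ± 1.83 through 72.2 ± 5.18 to 126 ± 3.88 CPM with dose, rising mostly between the doses. ZMAT3 went from 50.3 ± 4.0 through 77.1 ± 0.305 to 136 ± 10.1 CPM. TGFB2 was nearest to BICC1, which was also lowest in SLO ½ (175 ± 7.66, 153 ± 6.37 and 183 ± 9.36 CPM in VEH, SLO ½ and SLO). TGFB1 was nearest to PFKL, TGFB3 to CLEC16A, TGFBR2 to SEC23IP and SMAD3 to TRAF6 (root mean square differences 0.023 to 0.032, beside medians of 0.239 to 0.265 over all candidates).

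Other annotated genes overlap some members. TGFB2-AS1, which begins on the opposite strand across the start of TGFB2, had 10 to 25 counts per library, and like TGFB2 it was higher in SLO than in SLO ½ (0.93 ± 0.28 SE, adjusted p = 0.00801). The TGFB1 locus is overlapped by HNRNPUL1, CCDC97, TMEM91 and a noncoding gene, and HNRNPUL1 fell in SLO (-0.47, adjusted p = 4.73e-12) while TGFB1 was not called. TGFB3 lies within the span of IFT43, which had 156 to 223 counts beside the 38 to 51 of TGFB3. The deposited counts are by strand, which separates partners on opposite strands.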

How the data were processed

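RNA of HMC3 cells was measured in 9 bulk libraries, 3 each of VEH, SLO ½ and SLO, grouped by the sample names. The authors prepared polyadenylated RNA with the KAPA RNA HyperPrep kit, used Trimmomatic 0.38 for trimming and STAR 2.7.1a for alignment to GRCh38, and deposited counts per gene and strand, without normalization. They also deposited TPM, scaled for gene length and library total. How gene length was set and the annotation release are not given in the sources used here. The member coordinates are those of GENCODE v44. The labels do not say whether libraries of a group came from separate cultures, so p-values measure the spread between libraries, which may be technical. No 2 libraries of a group were alike within sampling noise (chi-square per degree of freedom 1.77 to 4.01).

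The count analysis used edgeR 4.0.16 in R 4.3.3: filterByExpr kept 14727 genes, TMM scaled the libraries (0.968 to 1.035), and a quasi-likelihood model of the 3 groups was fitted to all 9 libraries (biological coefficient of variation 3.76%). Benjamini-Hochberg adjustment ran over all tested genes, with calls at an adjusted p below 0.05. Ratios of TPM were compared by two-sided exact permutation tests (scipy 1.17.1). Checked on simulated counts for SLO against VEH (14727 genes), the model called 94 of 100 genes changed by a log2 of 1 and 65 of 100 changed by 0.5, with 0 of the wrong sign. No other genes were changed there and all had the same dispersion, unlike the measured libraries. These shares check the code and do not give the sensitivity in the measured data.

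The 9 members and the pathway and marker lists were chosen with earlier results of these data known. Named besides the members were, in each list, the 3 tested genes of smallest p at the full dose against VEH, for each member the gene with the closest profile (average log2 CPM of at least 2), and genes overlapping a member, and others are said to be chosen after their values were seen. Upstream sequences were read from the GRCh38 genome. Alternatives were DESeq2 1.42.0, edgeR with its size factors or with library size alone, edgeR without a filter or with a minimum of 10 counts per library, a fit to just the compared groups, a replicate block, limma 3.58.1 on log2(TPM + 1) and log2(TPM + 0.1), CPM in place of TPM for ratios, and each library left out.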

Additional observations from a re-analysis of the deposited data

How the results depend on the processing

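Over the alternatives, including each library left out, the members called numbered 5 to 7 for SLO against VEH, 5 or 6 for SLO ½ against VEH and 4 to 6 between the doses, and the genes called over the whole table stayed within 1.5 times of the reported counts. Direction and call held throughout for SMAD7, TGFBI and INHBA in both treatments against VEH, for TGFBR1 in SLO, for TGFB2 in SLO ½, for SMAD3 in SLO ½, and for TGFBR1, TGFBR2, SMAD7 and TGFB2 between the doses. The lost or gained calls of SMAD3, TGFBR1, TGFBR2, TGFB2, INHBA and TGFBI are given beside their values, and the cause was not tested. Of the genes that were not called, TGFB1 in SLO ½ turned to 0.046 with library size only, to 0.015 with at least 10 counts in every library and to 0.0019 with only the 2 groups compared (log2 fold changes), and ran from -0.063 to 0.024 with a library left out. TGFB3 in SLO ½ turned to 0.035 with library size only and 0.0046 with at least 10 counts, and ran from -0.073 to 0.029. TGFB1 in SLO ran from -0.020 to 0.066 with a library left out and from 0.019 to 0.11 over the other alternatives. The share of TGFB2 among TGFB ligands differed between SLO and VEH by -0.340 to 1.21 percentage points with a library left out. SKI was not called in SLO ½ by limma on log2(TPM + 1) or log2(TPM + 0.1) (0.11 each, adjusted p = 0.0657 and 0.066). With library size only, the median of all genes was 0.089 in SLO against VEH.

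Deviations from group means correlated at 0.0028 to 0.087 between libraries of the same replicate number and at -0.062 to 0.037 otherwise. Any pairing by number was thus weak, and these values cannot tell a weak pairing from none. With the number as a replicate block, 9622, 7749 and 6162 genes were called for SLO against VEH, SLO ½ against VEH and SLO against SLO ½, and 6, 5 and 5 members, which changed no member's call. At this depth the limit lies with TGFB3, at 38 to 51 counts per library.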
